A study of Homo sapiens with 22 samples.

Results

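The genes described here encode the aminoacyl-tRNA synthetases and the scaffold proteins that hold some of them together, 38 genes in all among 20136 human protein-coding genes with an annotated transcription start site (TSS). Of these, 19 encode synthetases of the cytosol, 16 encode synthetases of the mitochondrion (names ending in 2), and 3 encode scaffold proteins of the cytosolic multisynthetase complex, AIMP1, AIMP2 and EEF1E1. They were chosen by gene name, with earlier results of these data known, and the rule sets no threshold on a binding value. For each gene, a peak of N-MYC or WDR5 was taken as present where any base of it lay within 1 kb of an annotated TSS, and its strength was the fold enrichment of the strongest such peak, given as a percentile within the peak list of that library, so that 100 is the strongest peak of the list.

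The data were ChIP-seq peak lists, in which an antibody collects the DNA that a protein sits on, from CHP-134 and IMR-32, human neuroblastoma cell lines with an amplified MYCN gene. CHP-134 cells had received DMSO or a compound for 4 h. There were 3 libraries for each antibody and treatment. IMR-32 cells were untreated, with 2 libraries for each antibody, so that 8 N-MYC lists and 8 WDR5 lists were at hand. The labels name the compound in different ways (agent 419C91, title C38b) and give no dose, so it is called the compound here, and they state the DMSO amount once as 0.0005% and once as 0.005%. N-MYC was collected with 5 µl of a custom serum and WDR5 with 5 µl of a commercial antibody, and each library pooled 3 immunoprecipitations of identical samples. The study's methods describe the ChIP-seq as repeated in 3 independent experiments, but the labels do not say that cultures were grown and treated separately, so the p-values below may measure technical spread only. CHP-134 was sequenced as single reads on a NextSeq and IMR-32 as paired ends on a NovaSeq, so that cell line and sequencing run cannot be told apart. Peak lists carry no read depth and no expression, so the depth behind each value is unknown and the identity of the lines was not checked. The lists differed in length, from 9125 to 15286 peaks for N-MYC in DMSO, 2964 to 12313 for N-MYC under the compound and 5242 to 8286 for N-MYC in IMR-32. The WDR5 lists held 1671 to 4891 peaks in DMSO, 15 to 5973 under the compound and 1258 to 1693 in IMR-32. The shortest lists of each kind under the compound were replicate 2, with 2964 N-MYC and 15 WDR5 peaks.

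A synthetase joins an amino acid to the tRNAs that read its codons, so that every protein made in the cell passes through this family. Most amino acids have a pair of nuclear genes for this, with separate enzymes for the cytosol and for the mitochondrion, while GARS1 and KARS1 supply both compartments from a single gene and EPRS1 fuses the enzymes for glutamate and proline. Several cytosolic enzymes, EPRS1, IARS1, KARS1, LARS1, MARS1, QARS1 and RARS1 among them, sit with AIMP1, AIMP2 and EEF1E1 in the multisynthetase complex. MYC proteins bind DNA with MAX, prefer the E-box CACGTG, and are known for raising the genes of growth and protein synthesis. WDR5 is a chromatin protein that contacts a short conserved stretch of MYC proteins. Many cytosolic synthetase genes are also known targets of ATF4, the transcription factor of the amino acid response, whose composite site contains TGATGNAA.

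Among the 28 genes of the family with N-MYC in CHP-134 DMSO (described below), 7 (25%) had CACGTG within 100 bp of the mean N-MYC summit, beside 24.8% of the 7559 protein-coding genes with N-MYC and a canonical TSS. They were VARS1, FARSB, EARS2, NARS2, MARS2, AIMP2 and EEF1E1. The sites of the 5 that the fixed rule names are shown because they lie under some of the strongest N-MYC peaks of the family, in 30 bases on the strand of the gene, with the E-box in capitals (hg19). Distances are positive in the direction of transcription. The VARS1 site (chr6:31763477-31763506, minus strand) lay in the untranslated part of an exon, at 8 bp from the mean summit. The EARS2 site (chr16:23568669-23568698, minus strand) began upstream of the TSS, at −17 bp from the mean summit. The NARS2 site (chr11:78285769-78285798, minus strand) lay in the untranslated part of an exon, the AIMP2 site (chr7:6049109-6049138, plus strand) in a coding exon, and the FARSB site (chr2:223521148-223521177, minus strand) upstream of the TSS.
VARS1: caaaggggggaaCACGTGggcgccggctgc
EARS2: cagggagaagccCACGTGtgctattccatc
NARS2: agctgccaactgCACGTGgtttctttctgg
AIMP2: ccgggcgctggcCACGTGcaggtaggagcg
FARSB: ggcaagatctccCACGTGgaggccccaccc

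The core of the amino acid response element, TGATGNAA on either strand, was found from 250 bases before to 50 bases after the canonical TSS of 8 of 19 cytosolic genes (42.1%), 1 of 16 mitochondrial genes (YARS2, 6.25%) and 0 of 3 scaffold genes, beside 2.49% of 19856 protein-coding genes with a canonical TSS. The cytosolic genes were AARS1, CARS1, GARS1, IARS1, MARS1, NARS1, TARS1 and YARS1. The core fell into both kinds of gene, those with N-MYC (GARS1, IARS1, TARS1, YARS1 and YARS2, 5 of 28, 17.9%) and those without an N-MYC call (AARS1, CARS1, MARS1 and NARS1, 4 of 10, 40%). Over all genes the shares were 1.204% with N-MYC and 3.29% without. The sites below, picked after the values were seen, set 3 genes in which the core lay within 100 bp of the mean N-MYC summit (51 bp from it for IARS1 and GARS1 and −10 bp for YARS1) beside the 4 genes without an N-MYC call. Of these 4, MARS1 and CARS1 also had the core within 100 bp (31 and 96 bp) of the summit in the single DMSO library with a peak. Each is 30 bases on the strand where the core reads TGATGNAA, with the core in capitals. In hg19 they are IARS1 chr9:95055974-95056003 (plus strand), GARS1 chr7:30634450-30634479 (minus), YARS1 chr1:33282938-33282967 (minus), AARS1 chr16:70323578-70323607 (plus), CARS1 chr11:3078637-3078666 (plus), MARS1 chr12:57881836-57881865 (minus) and NARS1 chr18:55289036-55289065 (minus). The cores of IARS1, GARS1 and AARS1 lay upstream of the canonical TSS and those of CARS1 and MARS1 across it. The cores of YARS1 and NARS1 lay in an untranslated part of an exon.
IARS1: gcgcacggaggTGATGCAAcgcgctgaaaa
GARS1: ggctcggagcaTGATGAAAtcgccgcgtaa
YARS1: ccgagcccagcTGATGCAAcctggctggac
AARS1: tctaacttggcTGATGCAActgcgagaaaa
CARS1: ttcctagaatcTGATGCAAccgccgccccg
MARS1: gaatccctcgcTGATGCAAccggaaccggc
NARS1: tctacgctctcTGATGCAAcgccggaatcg

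Of these 7 sites, 6 have C at the free position of the core and GARS1 has A. CACGTG stood in the promoter window of 4 of 38 genes (10.5%: IARS1, VARS1, EARS2 and MARS2), beside 8.77% of all 19856. IARS1 held both motifs, with the E-box at −184 bp and the response core at −10 bp from its TSS. Only the core lay within 100 bp of the mean DMSO summit. By library the IARS1 summits lay at −18, −117 and −48 bp in DMSO and at −58, −41 and −11 bp under the compound. In IMR-32 they lay at −193 and −151 bp, nearer the E-box than the core. The E-box reads the same on both strands, and none of the sites shown overlaps a site of the other motif. A match is a description of the DNA, not of a bound site.

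**Figure D1:**
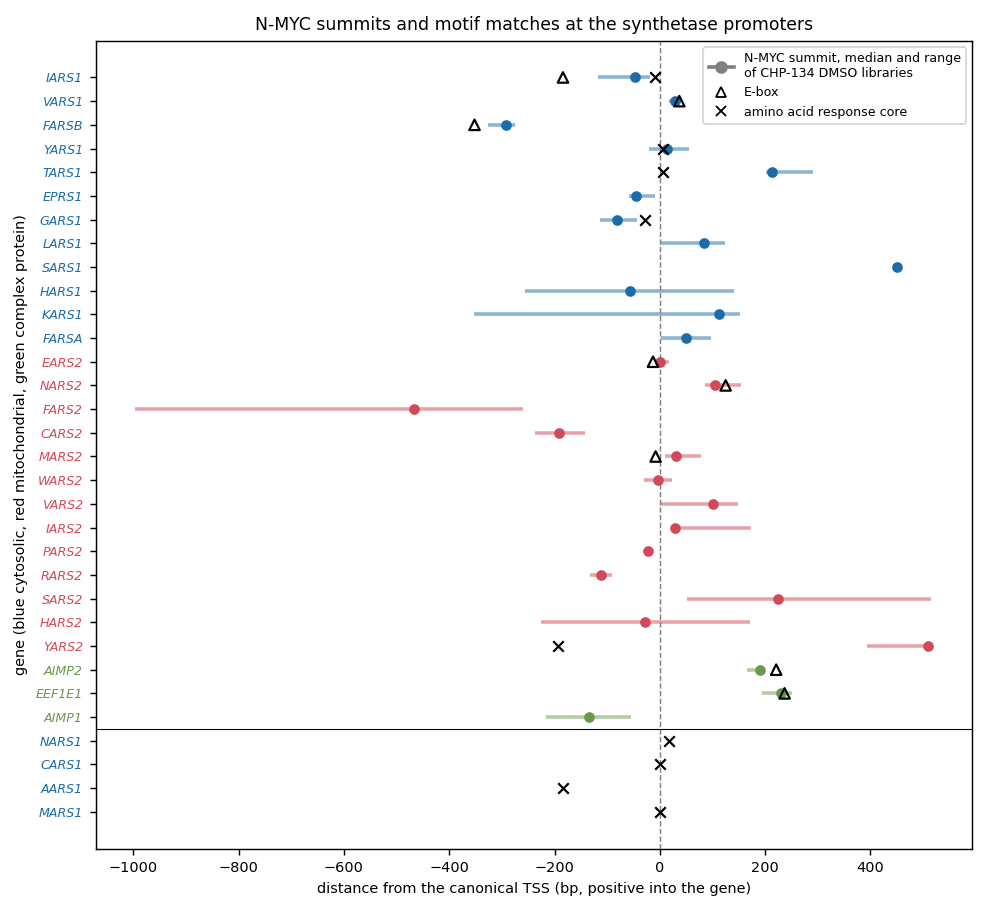
N-MYC summits in the CHP-134 DMSO libraries (points, median; bars, range over libraries) and motif matches (triangles, E-box; crosses, amino acid response core) for the 28 genes with N-MYC and, below the line, the motif matches of 4 genes without a call that hold the response core, by distance in bp from the canonical TSS. Most summits lie within 200 bp of the TSS, with FARSB, FARS2, TARS1, SARS1, SARS2, YARS2 and EEF1E1 farther away, and E-boxes lie close to the summits of VARS1, EARS2, NARS2, AIMP2 and EEF1E1.

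N-MYC was found at the promoters of most of the family in CHP-134 cells with DMSO. A peak in at least 2 of 3 libraries was present at 28 of 38 genes (73.7%), beside 37.6% of all protein-coding genes. By class these were 12 of 19 cytosolic genes, 13 of 16 mitochondrial genes and 3 of 3 scaffold genes, and 7 of 10 genes of the multisynthetase complex. The median percentile of the genes with a peak was 64.3 ± 8.93 (SD, n = 3 libraries), against 57.3 ± 2.61 for all genes with a peak. The count was 20, 25 and 23 without DMSO library 1, 2 and 3. In all counts of members made without a CHP-134 library, both of the others had to hold a peak, so no such count can rise. Since longer lists hold more promoters, the count was also made on the 2964 strongest peaks of every list, a setting chosen after seeing the data, where 12 of 38 genes (31.6%) stood beside 10.9% of all genes.

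**Figure D2:**
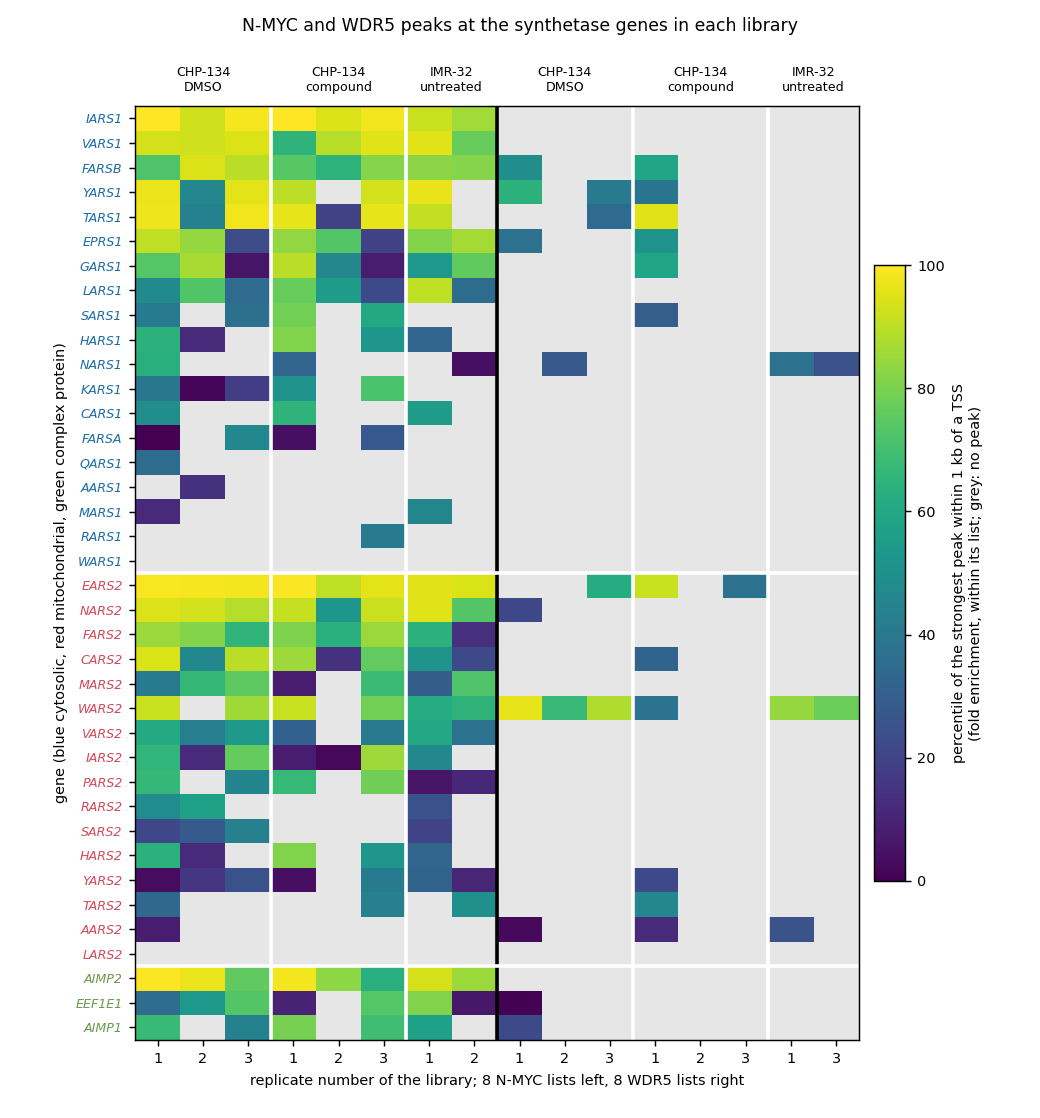
Percentile of the strongest N-MYC peak (8 columns left of the black line) and WDR5 peak (8 columns right of it) within 1 kb of a TSS of each gene, by library; grey marks no peak. Genes are sorted within class by mean N-MYC percentile in CHP-134 DMSO, and the N-MYC columns are filled for most genes, while the WDR5 columns are mostly grey except for WARS2.

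The strongest N-MYC peaks of the family sat at EARS2, IARS1, VARS1, NARS2 and AIMP2. EARS2, the mitochondrial glutamyl-tRNA synthetase, had percentiles of 99.1, 98.7 and 98.4 in DMSO libraries 1, 2 and 3, with folds of 16.2, 14.1 and 15.0 over background. IARS1, the cytosolic isoleucyl-tRNA synthetase, stood at 99.8, 92.9 and 98.5, with folds of 20.9, 9.63 and 15.3. Both thus stood near the top of the list in every library.
VARS1, the cytosolic valyl-tRNA synthetase, had 93.5, 92.6 and 94.6, the narrowest spread of the 5 apart from EARS2. NARS2, the mitochondrial asparaginyl-tRNA synthetase, had 94.8, 93.3 and 88.9. AIMP2, a scaffold of the multisynthetase complex, had 99.5, 97.0 and 75.6, and so was lower in library 3 than in the others. FARSB, which encodes the beta subunit of the cytosolic phenylalanyl-tRNA synthetase, followed with 72.4, 94.9 and 89.7, while FARSA, for the alpha subunit of the same enzyme, had 0.327 and 46.7 in libraries 1 and 3 and no peak in library 2. The subunits of this single enzyme thus differed in every library.

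Several other members varied widely between replicates. EPRS1 stood at 90.4, 84.1 and 23.3 and GARS1, the glycyl-tRNA synthetase of both compartments, at 73.5, 86.8 and 5.65, both lowest in library 3. The opposite held for the threonyl-tRNA synthetase TARS1 (97.4, 43.8 and 98.0), the tyrosyl-tRNA synthetase YARS1 (97.2, 46.2 and 96.0) and the mitochondrial cysteinyl-tRNA synthetase CARS2 (94.3, 46.8 and 89.5), which were lowest in library 2. The same replicate pattern returned in the compound libraries, where EPRS1 had 83.9, 73.1 and 19.5, GARS1 had 89.6, 46.3 and 7.90, TARS1 had 96.2, 19.9 and 96.1 and CARS2 had 85.2, 14.3 and 76.0. No single library therefore gives the order of these genes, and what a replicate number stands for is not stated in the labels.

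N-MYC was not called at 10 genes. RARS1, WARS1 and LARS2, for arginine and tryptophan in the cytosol and leucine in the mitochondrion, had no peak in any DMSO library. AARS1, CARS1, MARS1, NARS1, QARS1, AARS2 and TARS2 had a peak in a single DMSO library, at percentiles from 7.80 (AARS2) to 62.7 (NARS1). The nearest region with N-MYC in at least 2 DMSO libraries lay 8.16 kb (NARS1) to 205 kb (LARS2) from a TSS of these genes. Over all 8 N-MYC lists, WARS1 and LARS2 had no peak in any, as had 48.5% of all protein-coding genes, and RARS1 had a single peak in compound library 3 (percentile 41.0). At the other end, 11 genes had a peak in every list, beside 7.55% of all genes. These were EPRS1, FARSB, GARS1, IARS1, LARS1, VARS1, CARS2, EARS2, FARS2, NARS2 and AIMP2. A gene with no peak may still hold N-MYC below the calling threshold.

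Cytosolic genes were compared with mitochondrial genes within each library, over the genes with a peak. In CHP-134 DMSO the cytosolic median minus the mitochondrial median was −0.816, 26.1 and −28.7 percentile points in libraries 1, 2 and 3, a mean of −1.11 ± 27.4 (SD, n = 3). The direction thus differed between libraries and the mean lay far inside their spread. With a missing peak counted as 0 the mean was −17.9, and without GARS1, KARS1, HARS1 and HARS2 it was 13.4. Its sign thus also changed with the setting, within the spread of the libraries. Under the compound the differences were −2.94, 11.9 and −16.4 (−2.46 ± 14.1), in the same order of libraries. In IMR-32 they were 36.1 and 33.1 (34.6 ± 2.14, n = 2), with medians of 82.6 and 76.9 for 11 and 7 cytosolic genes and 46.5 and 43.9 for 13 and 10 mitochondrial genes. That gap covers only genes with a peak: with a missing peak counted as 0 the IMR-32 difference was 0.525, and 6 of 19 cytosolic and 9 of 16 mitochondrial genes were called there. The other alternatives gave 22.7 to 38.5. For WDR5 in CHP-134 DMSO the differences were 27.7, −39.5 and −36.9 (−16.2 ± 38.04, n = 3), over 1 to 3 genes per class and library, and the difference was 0 with a missing peak counted as 0.

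**Figure D3:**
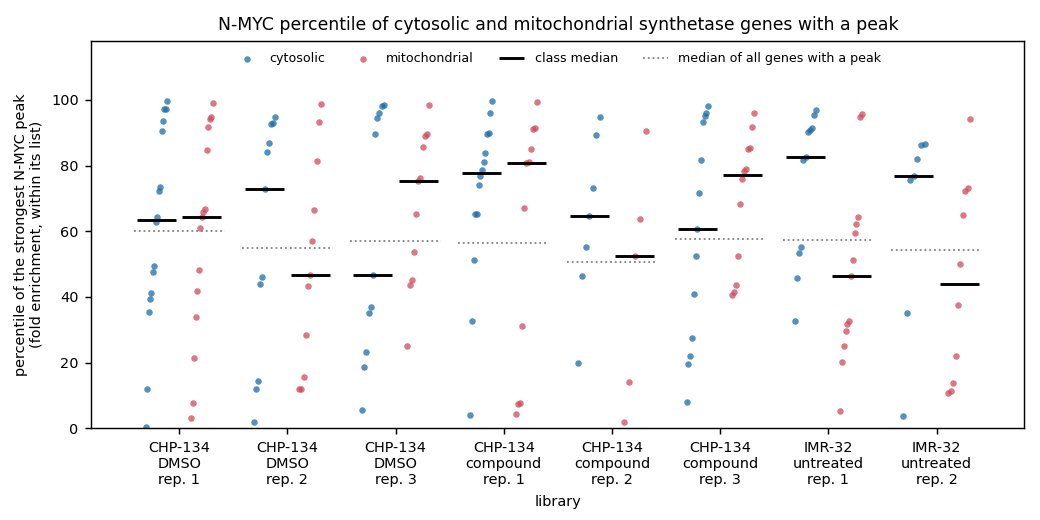
N-MYC percentile of each cytosolic (blue) and mitochondrial (red) synthetase gene with a peak, in each of the 8 N-MYC libraries; black bars are class medians and dotted lines the median of all genes with a peak. The class medians swap order between the CHP-134 replicates, while the cytosolic median is higher in both IMR-32 libraries, by 36.1 and 33.1 points.

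In 14 pairings of a cytosolic with a mitochondrial gene for the same amino acid, the genes do not share a promoter with each other. Of these, the cytosolic gene had the higher N-MYC percentile in every DMSO library in 5, the mitochondrial gene in 4, and neither in 5 (no peak counted as 0). Some of these genes share a promoter with a gene outside the family, such as YARS1 with S100PBP and FARS2 with LYRM4. For isoleucine, IARS1 averaged 97.1 ± 3.64 and IARS2 51.4 ± 34.4 (SD, n = 3). For valine, VARS1 averaged 93.6 ± 0.996 and VARS2 52.6 ± 8.89. LARS1, TARS1 and YARS1 were likewise above LARS2, TARS2 and YARS2. The order was turned for asparagine, where NARS2 averaged 92.4 ± 3.07 and NARS1 20.9 ± 36.2, and for cysteine, methionine and phenylalanine, where CARS2, MARS2 and FARS2 were above CARS1, MARS1 and FARSA, though FARS2 (77.2 ± 10.5) was not above FARSB (85.7 ± 11.8) in every library. Neither compartment thus stood above the other across the family. The 15th pairing, HARS1 and HARS2 for histidine, shares a promoter: the TSSs lie 37 bp apart in opposite directions, and the same peak, at 64.4 and 12.1 in DMSO libraries 1 and 2 and absent in library 3, counts for both.

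Such sharing touched other members too. A TSS of another protein-coding gene lay within 1 kb for 14 of 38 genes, and 11 of these 14 had N-MYC, beside 17 of the 24 genes with no such neighbour. EARS2 starts 4 bp from the divergent gene UBFD1, AIMP2 133 bp from PMS2, YARS1 84 bp from S100PBP, SARS2 181 bp from MRPS12 and RARS2 39 bp from ORC3. For EEF1E1 the neighbour is an annotated readthrough of EEF1E1 itself. A peak at a shared promoter cannot be assigned to either gene from these lists. IARS1, VARS1, NARS2 and FARSB had no such neighbour. Long noncoding RNA genes were left out of this count. Among them, WARS2-AS1 starts 77 bp from WARS2, GARS1-DT 24 bp from GARS1 and TARS1-DT 47 bp from TARS1, each in the opposite direction.

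WDR5 was called at few members and at few genes in all. In CHP-134 DMSO a WDR5 peak in at least 2 libraries was present at 2 of 38 genes (5.26%), YARS1 and WARS2, beside 8.24% of all protein-coding genes. In IMR-32 it was present at NARS1 and WARS2 (5.26%), beside 4.75%. Without DMSO WDR5 library 1 or 3 the DMSO count was 1. With a peak in any single DMSO library the count was 11 of 38 (28.9%) beside 21.5% of all genes. Over all 8 WDR5 lists, 22 of 38 genes had no peak in any, a smaller share than the 70.5% of all genes. These included IARS1, VARS1, FARS2 and AIMP2. Of the genes with N-MYC in CHP-134 DMSO, WDR5 was also called at 7.14% of this family (2 of 28) and at 19.97% of all genes (1512 of 7572). The WDR5 lists are shorter than the N-MYC lists, and a missing peak does not show that WDR5 was absent.

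WARS2, the mitochondrial tryptophanyl-tRNA synthetase, stood apart. Its WDR5 percentiles were 96.4, 67.3 and 88.0 in DMSO and 84.3 and 77.7 in IMR-32 replicates 1 and 3, and it was the only member with WDR5 in every library of both lines without the compound. Its folds were 11.4, 5.87 and 9.24 in DMSO and 17.5 and 14.4 in IMR-32. Raw folds are not comparable between the runs, and the centred difference is given with the comparison of the lines. The next by mean WDR5 percentile in DMSO were YARS1 (64.1 and 41.2 in libraries 1 and 3), EARS2 (61.7 in library 3), FARSB (49.4 in library 1) and EPRS1 (37.8 in library 1), none of which had a peak in the remaining libraries. NARS1 had WDR5 at 37.8 and 24.9 in IMR-32 and 27.8 in DMSO library 2 alone.

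N-MYC and WDR5 regions that overlapped by at least 1 bp, each present in at least 2 libraries, marked YARS1 and WARS2 in CHP-134 DMSO, beside 7.06% of all genes, and WARS2 in IMR-32, beside 2.28%. WARS2 was the only member cobound in both lines. In DMSO its N-MYC region spanned chr1:119682749-119683896 and its WDR5 region chr1:119682817-119683796, over the TSS at 119683276. Its N-MYC percentiles were 91.7 and 85.7 in DMSO libraries 1 and 3, with no peak in library 2, and 62.1 and 64.9 in IMR-32. At YARS1 the N-MYC region (chr1:33282593-33284068) covered 2 separate WDR5 regions (chr1:33282702-33283088 and chr1:33283349-33283727), and the TSS of S100PBP lies on the same stretch. These counts rest on single libraries: without DMSO WDR5 library 1 or 3 the cobound count in CHP-134 was 1, as it was without N-MYC library 1 or 3.

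In IMR-32, N-MYC was present in both libraries at 17 of 38 genes (44.7%), beside 15.2% of all genes. These were 6 cytosolic genes (EPRS1, FARSB, GARS1, IARS1, LARS1 and VARS1), 9 mitochondrial genes (CARS2, EARS2, FARS2, MARS2, NARS2, PARS2, VARS2, WARS2 and YARS2) and the scaffolds AIMP2 and EEF1E1. All 17 were also called in CHP-134 DMSO, as were 95.4% of all genes called in IMR-32, and they made 60.7% of the family's CHP-134 genes. Called in CHP-134 alone were AIMP1, FARSA, HARS1, HARS2, IARS2, KARS1, RARS2, SARS1, SARS2, TARS1 and YARS1, of which 8 had a peak in IMR-32 library 1 (the longer list) and FARSA, KARS1 and SARS1 had none. Without IMR-32 library 2 any peak in the single remaining list counted, which gave 27 genes (71.1%), beside 25.9% of all genes. The strongest members were shared: EARS2 had 95.5 and 94.3, IARS1 91.6 and 86.3, AIMP2 93.5 and 84.8 and VARS1 95.4 and 76.9 in IMR-32 libraries 1 and 2.

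N-MYC strength was compared between the lines over 2656 protein-coding genes with a peak in all 5 libraries, as log2 fold centred on the median of each library and tested with limma. Of the 15 members that could enter, 0 passed an adjusted p of 0.05, while 10 genes in all did (0.377%, 4 higher and 6 lower in IMR-32). That total was 26, 33 and 6 without DMSO library 1, 2 and 3 and 0 without either IMR-32 library, and 385 genes had an unadjusted p under 0.05. The members' median difference was 0.063, beside 0.041 for all genes tested, a value that the centring holds near 0. The largest member differences were those of the leucyl-tRNA synthetase LARS1 (0.56, SE 0.32, adjusted p = 0.454), EPRS1 (0.47, SE 0.33, adjusted p = 0.577), CARS2 (−0.51, SE 0.31, adjusted p = 0.49) and IARS1 (−0.51, SE 0.31, adjusted p = 0.491). Their 95% intervals all included 0 and reached from −1.14 to 1.22, so that differences of this size were not resolved. Without a single library LARS1 ranged from 0.17 (without IMR-32 library 1) to 0.95 (without IMR-32 library 2), EPRS1 from 0.11 (without DMSO library 3) to 0.66, and CARS2 from −0.77 to −0.34 and IARS1 from −0.75 to −0.30 (without DMSO libraries 2 and 1). For WDR5, WARS2 was the only member with a peak in all 5 libraries, and its difference was −0.037 (95% interval −0.69 to 0.61, adjusted p = 0.955, limma), where 174 of 510 genes passed (34.1%). Without a single library the WARS2 difference ranged from −0.27 to 0.17. That total was 68 without IMR-32 WDR5 library 1, and 0 on the percentile scale.

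Under the compound, N-MYC was present in at least 2 libraries at 26 of 38 genes (68.4%), beside 29.8% of all genes. These were 12 cytosolic, 11 mitochondrial and 3 scaffold genes, all of them also called in DMSO. The compound list thus kept 26 of the 28 DMSO genes (92.9%), beside 75.9% over all genes, and the 2 not called were RARS2 and SARS2. The count was 13 without compound library 1 or 3, since compound library 2 held peaks at 13 members, and 26 without compound library 2. On the 2964 strongest peaks of each list, 15 genes of the family (39.5%) were called under the compound, beside 10.2% of all genes. In DMSO they were 12 (31.6%), beside 10.9%.

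The libraries paired by number in this comparison, so the fit with the number as a block is given beside the fit without it. N-MYC strength was tested over 2101 genes with a peak in all 6 libraries, which leaves out any gene whose peak was lost. Of these, 0 genes (0%) passed an adjusted p of 0.05 with limma and 12 had an unadjusted p under 0.05. With the block 2 genes passed (0.0952%), both lower under the compound, and 142 had an unadjusted p under 0.05. None of the 13 members tested passed in either fit. Each library was centred on its median over these same genes, so the median difference of all genes lies near 0 by construction. A change shared by most genes cannot show in these fits. The members' median difference was −0.04, beside 0.0012 for all genes. The largest were LARS1 (0.26, blocked SE 0.18, adjusted p = 0.775 with the block and 0.999 without, limma), FARS2 (0.23, blocked SE 0.16, adjusted p = 0.763), AIMP2 (−0.24, blocked SE 0.15, adjusted p = 0.763) and CARS2 (−0.16, blocked SE 0.16, adjusted p = 0.886). On the percentile scale LARS1 and FARS2 were −0.56 and −0.73 points, where the median of all genes was −10.2, and AIMP2 was 0.057 (log2) without DMSO library 1 and 0.13 without compound library 3. Without a single library LARS1 ranged from 0.029 (without compound library 2) to 0.588 (without compound library 3) and FARS2 from 0.106 (without DMSO library 3) to 0.309. The members' blocked intervals lay between −0.56 and 0.65.

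**Figure D4:**
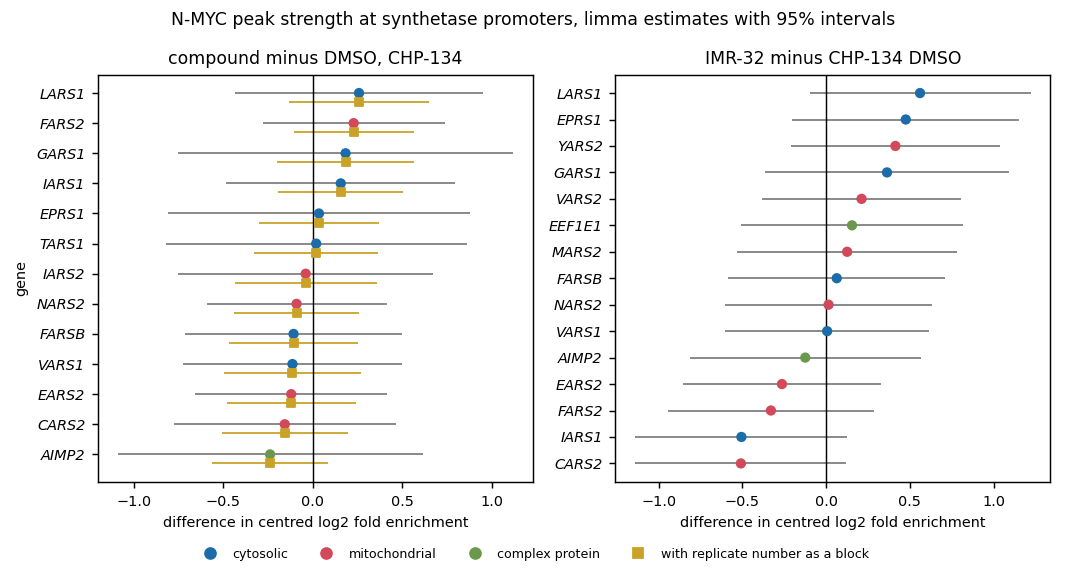
Difference in centred log2 fold enrichment of N-MYC with 95% intervals from limma, for the 13 members tested between compound and DMSO (left; squares with replicate number as a block) and the 15 tested between IMR-32 and CHP-134 DMSO (right). All intervals include 0, and those with the block are narrower than those without it.

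A gene that lost its peak can be compared only by percentile with a missing peak as 0, where 3 libraries against 3 cannot give an exact permutation p below 0.1. SARS2, the mitochondrial seryl-tRNA synthetase, had N-MYC at 21.3, 28.3 and 43.7 in DMSO and no peak in any compound library. VARS2, for mitochondrial valine, had 61.0, 43.3 and 53.5 in DMSO and 31.1, no peak and 41.7 under the compound. The groups did not overlap for these 2 of 36 members (exact permutation p = 0.1, two-sided, for each), beside 5.62% of the 10109 genes with an N-MYC peak in any of these libraries, a share near the members' own. No member was higher under the compound without overlap, and neither was any other gene. Compound library 2 had peaks at only 2200 genes, and a gene counted as 0 there cannot be higher in that library. Most genes thus could not be counted as higher, here or in the pairs that follow. The part of this short list in the counts of lower genes was not tested. Taken as pairs of one replicate number, a count added after seeing the data, 8 of 36 members (22.2%) were lower under the compound in all 3 pairs, beside 20.9% of the 10109 genes, and 0 were higher, beside 0.317%. The 8 were SARS2, VARS2, AIMP2, CARS2, EPRS1, MARS2, TARS1 and YARS1. MARS2, for mitochondrial methionine, went from 41.8 to 7.82, from 66.6 to no peak and from 75.4 to 68.3 in pairs 1, 2 and 3. RARS2 had 48.2 and 57.2 in DMSO libraries 1 and 2 and no peak in library 3 or under the compound. Of the 5 strongest members in DMSO, EARS2 and IARS1 stayed near the top of every list, with 99.4, 90.6 and 96.1 and with 99.7, 94.8 and 98.1 in compound libraries 1, 2 and 3. The other 3 had larger falls, with VARS1 at 65.2, 89.4 and 95.01, NARS2 at 91.2, 52.6 and 91.9 and AIMP2 at 98.2, 82.9 and 62.8. All 5, picked for their high DMSO values, were lower in at least 1 compound library than in the DMSO library of that number.

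**Figure D5:**
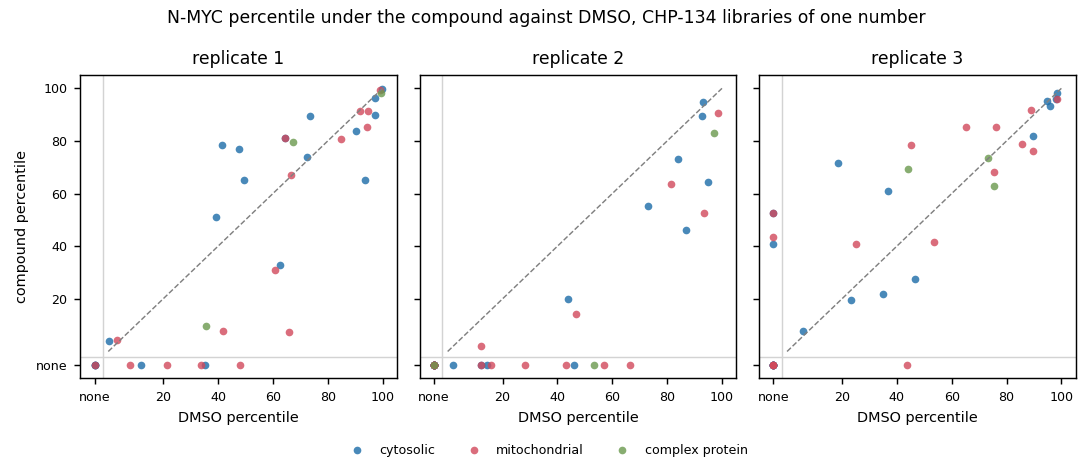
N-MYC percentile of each member under the compound against DMSO, in the CHP-134 libraries of the same replicate number; points on the lower or left margin (none) had no peak, and the dashed line marks equal values. Most members near the top in DMSO lie near the top under the compound in replicates 1 and 3, except VARS1 in replicate 1 (93.5 and 65.2), and many have no peak in compound library 2, the short list.

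WDR5 strength under the compound was not fitted across genes, since 17 genes had a peak in all 6 libraries and 141 did without compound library 2, under the minimum of 200 set for a fit. The compound lists held 5973, 15 and 401 peaks, against 4891, 1758 and 1671 in DMSO. At WARS2 the WDR5 percentile was 38.2 in compound library 1 with no peak in libraries 2 and 3, and did not overlap the DMSO values of 96.4, 67.3 and 88.0 (exact permutation p = 0.1, two-sided), as for 9.07% of the 5590 genes with a WDR5 peak in any of these libraries. The only member called was EARS2, beside 1.29% of all genes, with 91.7 and 37.2 in compound libraries 1 and 3 against 61.7 in DMSO library 3 alone, and the count was 0 without compound library 1 or 3. EARS2 was also the only member cobound under the compound, beside 1.05% of all genes. TARS1 had WDR5 at 95.5 in compound library 1 and at 34.8 in DMSO library 3, and in no other library of CHP-134. With lists this uneven, the part of list length in these values was not tested.

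Other genes that feed or use charged tRNA were counted in the same way, beside the 37.6% of all genes with N-MYC and the 8.24% with WDR5. The 4 partners of mitochondrial charging (GATB, GATC, QRSL1 and MTFMT), which mend or mark aminoacyl-tRNAs in the organelle, all had N-MYC in CHP-134 DMSO, led by GATC at a mean percentile of only 41.0 ± 21.6 (SD, n = 3). N-MYC was present at 16 of 20 genes of RNA polymerase III and its factors, the machine that transcribes tRNA genes, led by POLR3D (97.9 ± 2.35). It was present at 16 of 21 genes of amino acid synthesis and uptake, led by the amino acid transporter chain SLC3A2 (98.8 ± 0.913) and by ATF4 itself (94.97 ± 3.14), and at 19 of 21 genes of tRNA modification and maturation, led by the dihydrouridine synthase DUS3L (96.7 ± 3.51). WDR5 was called at 1, 5, 7 and 2 genes of these lists, against 2 of 38 genes of the synthetase family. In IMR-32, N-MYC was present at 1, 13, 13 and 12 of them, beside 15.2% of all genes.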

How the data were processed

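Peak lists of 16 of the 22 samples were used; the 6 IgG samples were not analysed here. Per the labels and the study's methods, Cutadapt removed adapters, Bowtie2 placed the reads on hg19 and MACS2 called the peaks of each library at a q-value of 0.05, and the authors formed consensus peaks with DiffBind; versions, and the control used for calling, are not given in the sources used here. Each deposited list holds fold enrichment (a ratio), −log10 p-value, −log10 q-value and a display score per peak, as the authors' caller wrote them. Replicates were not pooled in the lists. Only promoters were assigned: TSSs of GENCODE release 44 mapped to GRCh37 (basic transcripts), a distance of 1 kb, calls at 2 libraries, cobinding at 1 bp overlap. All 38 names matched the annotation.

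Fits used limma 3.58.1 (R 4.3.3) on log2 fold centred on the library median, over genes with a peak in every library (at least 200), with Benjamini-Hochberg adjustment over all genes tested. Values were computed with Python 3.11.15 and pandas 2.3.3. In simulated data for the compound comparison (2101 genes), 70% of genes shifted by 1 on the log2 scale were called. For N-MYC between the lines (2656 genes) it was 56%. The simulated libraries were independent and fitted without a block. They lack the replicate pattern of the compound comparison, so the 70% does not carry over to either of its fits. In the compound comparison, deviations from group means correlated at 0.661 to 0.696 over 2101 genes for N-MYC libraries of one number, which is why the block is shown. For different numbers they correlated at −0.364 to −0.299. Deviations within a group sum to 0 for each gene, so these negative values follow largely from the positive ones.

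Genes with values in every library were named by rule: cobound in both lines, the 5 highest mean N-MYC and WDR5 percentiles in DMSO, no N-MYC in DMSO, and the 2 largest differences each way in a fit with no call. Others were named after their values were seen. Members, lists and rules were chosen with earlier results of these data known.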

Additional observations from a re-analysis of the deposited data

How the results depend on the processing

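Counts of genes with N-MYC or WDR5 were equal at 500 bp, with summits, and with canonical or all TSSs. Only peaks with −log10 q of at least 5 gave 10 genes with N-MYC and 1 with WDR5 in IMR-32, 0 with WDR5 under the compound and 1 cobound in CHP-134. The share of all genes was not counted at this threshold, nor for the cobound counts that follow. Whether these changes are particular to the family is therefore not known. A peak in at least 1 library gave 11 (WDR5, 28.9% beside 21.5% of all genes) and 11 (cobound) in CHP-134 DMSO, 29 (N-MYC, 76.3% beside 28.6%) and 2 (cobound) in IMR-32 and 12 (WDR5, 31.6% beside 16.3%) under the compound. A peak in every library gave 1 (WDR5, 2.63% beside 3.86%) and 0 (cobound) in DMSO and 13 (N-MYC, 34.2% beside 10.6%) and 0 (WDR5, beside 0.0844%) under the compound. Lists of equal length were a setting chosen after seeing the data. For N-MYC they gave 12 genes in DMSO (31.6% beside 10.9% of all genes), 7 in IMR-32 (18.4% beside 7.45%) and 15 under the compound (39.5% beside 10.2%). For WDR5 they gave 1 in DMSO (2.63% beside 4.17%) and 2 in IMR-32 (5.26% beside 4.3%).

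Leaving out each library in turn gave 20 to 25 genes (N-MYC) and 1 to 2 (WDR5, and cobound) in DMSO, 19 to 27, 2 to 3 and 1 to 2 in IMR-32, and 13 to 26 (N-MYC) and 0 to 1 (WDR5) under the compound. The class difference then ranged from −14.7 to 12.7 (DMSO N-MYC), 33.1 to 36.1 (IMR-32) and −38.2 to −4.61 (DMSO WDR5, where single libraries gave 27.7, −39.5 and −36.9). In IMR-32 it was 22.7 with means, 38.5 without GARS1, KARS1, HARS1 and HARS2, 0.525 with no peak as 0 and 25.0 at the stricter q. For N-MYC in DMSO the same settings gave 0.316, 13.4, −17.9 and 12.3.

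The line comparison of N-MYC called 0 genes on percentiles, at the stricter q and with canonical TSSs, 17 with a trend, and 0 to 33 without a library. With the replicate block it called 36, but the pairing is not shown there, since same-numbered libraries correlated at 0.063 and 0.015. For WDR5 it called 0 on percentiles, 101 at the stricter q, 68 to 171 without a library and 79 with the replicate block. Same-numbered libraries correlated there at 9.9e-05 and −0.126. The compound comparison called 2 with the replicate block and 0 in all other settings, and the block changed no call of a member. The cause of these changes was not tested.

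Among single genes under the compound, AIMP2 turned sign without DMSO library 1 (0.057) or compound library 3 (0.131) and CARS2 without DMSO library 1 (0.017), over ranges of −0.611 to 0.131 and −0.428 to 0.017 without a library. FARS2 (−0.728) and LARS1 (−0.564) turned on percentiles, where the median of all genes was −10.2. Between the lines, WARS2 WDR5 ranged from −0.265 to 0.167 without a library, above 0 without DMSO library 1 (0.132) or 3 (0.157) or IMR-32 library 3 (0.167). The fit of WDR5 under the compound and its alternatives were not run, with 17 genes against a minimum of 200.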
